A study of Mus musculus with 4 samples.

Results

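The cells described here are the classical Ly6c2 monocytes of transplanted mouse mammary tumours, 326 of 14555 retained cells. They were chosen by unique molecular identifier (UMI) counts of marker genes. Barcodes were retained from 500 mouse UMIs and 250 genes upward, with no more than 20% of UMIs mitochondrial. A phagocyte held at least 3 UMIs of Lyz2, Cd68 and Csf1r together, making up at least 0.1% of its UMIs, with at most 1 UMI of the Cd3 genes and none of Siglech. A monocyte was a phagocyte with at least 3 UMIs of Ly6c2, Plac8, Vcan and Hp together, fewer than 3 of C1qa, C1qb and C1qc, fewer than 2 of Cxcl9 and Cxcl10, and under 2% of its UMIs from S100a8 and S100a9. These 18 genes chose the cells, and their values are given as a description without a test.

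The tumours grew from H605 cells, a HER2+ mouse mammary tumour line, and 2000000 of them were placed in the mammary pad of each FVB/NJ host aged 6 to 8 weeks. Hosts were wild type (WT) or lacked Il1a (Il1a-/-), the gene of interleukin-1 alpha. The injected line was the same in all hosts, so the genotype is that of the host. Each of 2 WT and 2 Il1a-/- tumours was collected on day 14, digested with collagenase and hyaluronidase, freed of red cells, enriched for live cells and profiled as a 10x 3' v3.1 library, and the series title names host interleukin-1 alpha and monocyte-to-macrophage differentiation as its subject. Each tumour is 1 sample, the labels name no further replicate, and p-values measure only the spread between these 4 samples.

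Classical monocytes leave the bone marrow through the chemokine receptor Ccr2, circulate with high Ly6C on their surface and enter inflamed tissue and tumours. There they can become macrophages, which gain complement C1q, apolipoprotein E and scavenger receptors, or stay monocyte-like and take on inflammatory or immune-suppressive programs. Interleukin-1 alpha is an alarm cytokine that acts through the receptor Il1r1 and the adaptor Myd88 and switches on NF-kB target genes.

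The WT tumours gave 91 monocytes in replicate 1 and 110 in replicate 2. The Il1a-/- tumours gave 36 in replicate 1 and 89 in replicate 2. The libraries held from 6704859 to 28999819 mouse UMIs, and Il1a-/- replicate 1 was the shallowest. Median UMIs per monocyte were 3446 and 4818 in the WT tumours against 1650 and 3644 in the Il1a-/- tumours, in replicate order, and summed over monocytes the samples held 332982, 611293, 57231 and 344538 UMIs. No monocyte barcode was retained in another library. Il1a itself had 67 and 112 UMIs over all retained cells of the WT tumours and 1 and 0 in the Il1a-/- tumours. The monocytes contributed almost nothing to it, with 2 Il1a UMIs, both from 1 cell of WT replicate 2. C1q phagocytes, defined as phagocytes with at least 3 C1q UMIs and under 2% of their UMIs from S100a8 and S100a9, held Il1a at 45.7 and 22.4 CPM in the WT tumours, and the other phagocytes held 2.81 and 23.5. CPM are a gene's UMIs per class and tumour scaled to a common total.

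The monocytes were mostly a Plac8 population. Plac8, a small cysteine-rich protein of myeloid cells, was detected in 97.2% of them and gave 75.5% of the UMIs of the 4 marker genes. Ly6c2, the gene of the Ly6C surface antigen, was detected in 54.3%, the plasma haemoglobin-binding protein gene Hp in 39.6% and the matrix proteoglycan gene Vcan in 23.6%. Only 1 of the 4 markers was detected in 96 monocytes, 2 in 120 and 3 or 4 in 110. At the limit itself, 27 monocytes held exactly 3 marker UMIs and 34 excluded cells held 2.

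Genes that took no part in the choice are described next. They came from genes higher, or lower, in the monocytes than in other phagocytes in all 4 samples. Their agreement between samples is thus no check of the label. Compared with all other phagocytes outside the S100a8 and S100a9 class, and as a description only, Ifitm6, an interferon-inducible membrane protein gene of myeloid cells, stood at 329.1 against 15.3 CPM when samples were pooled. The membrane protein gene Ms4a4c stood at 425.7 against 63.6 CPM, the small calcium-binding protein gene S100a4 at 2276 against 716 CPM and the transglutaminase gene F13a1 at 461.4 against 152 CPM. Each of these 4 was higher in the monocytes in all 4 samples. Genes listed below as nonclassical were among those higher in all 4 samples as well. Nr4a1 stood at 485.9 against 138.9 CPM, Itgal at 287.5 against 81.2 and Pou2f2 at 185.7 against 54.0. Genes of macrophages ran the other way. The chemokine gene Ccl8 stood at 66.9 against 6572 CPM, Retnla, a gene of alternatively activated macrophages, at 407.9 against 10463 CPM, and the selenium carrier gene Selenop at 326.9 against 1353 CPM. They were lower in the monocytes in all 4 samples.

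Marker lists of other cell types were then counted in the monocytes. The macrophage list of 8 genes, of which the choice of cells limited the 3 C1q genes, had 3547 UMIs, 2762 of them from the lipid carrier gene Apoe and 394 from the mannose receptor gene Mrc1. Its summed CPM was 3000.2 and 3120 in the WT tumours against 2673 and 1416 in the Il1a-/- tumours. Cd4, Ly6g, Cd79a, Ms4a1, Erbb2, Krt19, Pdgfra, Ccr9, Itgae and Klk1 had no UMI in any of them. The T and natural killer cell list of 10 genes had 71 UMIs in all, 24 of them from Nkg7 and 18 from Ncr1. Its 3 Cd3 genes were limited by the choice of cells, so that their low count is no independent check. There were 91 UMIs for the tumour epithelial list of 8 genes and 52 for the fibroblast list of 6 genes. The larger sums came from Csf3r with 134 UMIs, Bst2 with 119, Tcf4 with 101, Ighm with 147 and Cd209a with 117. Bst2 and Csf3r are not restricted to plasmacytoid cells and neutrophils, and Cd209a marks a dendritic-like subset. At least 2 UMIs over the lists of other cell types were held by 139 monocytes, unevenly by genotype, with 43 and 63 in the WT tumours against 5 and 28 in the Il1a-/- tumours. These counts of cells were not scaled for depth, which was lowest in Il1a-/- replicate 1. In summed CPM, T and natural killer genes stood at 51.1 and 81.8 against 17.5 and 8.71, B and plasma cell genes at 138 and 142 against 34.9 and 69.7, and conventional dendritic cell genes at 90.1 and 159 against 52.4 and 31.9. Tumour epithelial genes stood at 111 and 60.5 against 0 and 49.3, and fibroblast genes at 42.0 and 45.8 against 17.5 and 26.1. The plasmacytoid list, with UMIs from Bst2 and Tcf4 only, overlapped between groups, at 186 and 154 against 332 and 131. The part of the 139 cells in the results was not tested, and values without these cells are given where they end a call.

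As a share of all retained cells the monocytes did not separate by genotype. They were 2.27% (95% exact Clopper-Pearson interval 1.84 to 2.79) and 2.75% (2.26 to 3.30) in the WT tumours. They were 1.12% (0.786 to 1.55) and 2.67% (2.15 to 3.27) in the Il1a-/- tumours. The intervals cover counting error only. WT tumours averaged 2.51% ± 0.333 and Il1a-/- tumours 1.89% ± 1.09 (SD, n = 2 each). They were -0.616 percentage points apart (two-sided exact permutation p = 0.667).

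Within the phagocytes the monocytes made up a larger share in both Il1a-/- tumours. They were 24.1% of 378 and 18.03% of 610 phagocytes in the WT tumours, against 31.3% of 115 and 36.9% of 241 in the Il1a-/- tumours. The groups did not overlap. WT tumours averaged 21.1% ± 4.27 and Il1a-/- tumours 34.1% ± 3.98 (SD, n = 2 each), 13.1 percentage points apart, with a two-sided exact permutation p = 0.333, the smallest that the 6 assignments of 4 samples allow. The classes share a denominator. C1q phagocytes were 5.00% and 8.44% of retained cells in the WT tumours and 0.747% and 2.58% in the Il1a-/- tumours, while the monocyte share of retained cells moved far less. The limits touched the samples unevenly. Of cells that failed only through 2 or more Cxcl9 and Cxcl10 UMIs, 4 and 63 came from the WT tumours and 22 and 11 from the Il1a-/- tumours. Requiring 2 of the 4 markers to be detected brought the difference down to 5.60 points, and the groups then overlapped, at 17.7% and 13.3% in the WT tumours against 15.7% and 26.6% in the Il1a-/- tumours.

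**Figure D1:**
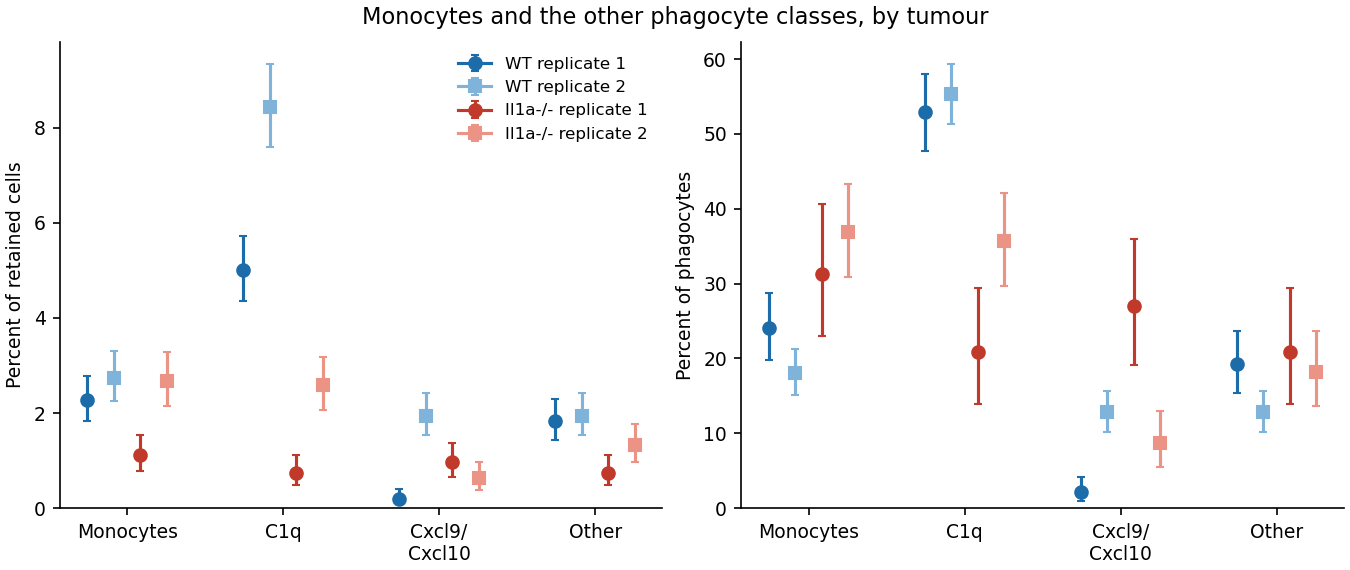
Monocytes, C1q phagocytes, Cxcl9/Cxcl10 phagocytes (2 or more UMIs of these genes) and other phagocytes as a percentage of retained cells (left) and of phagocytes (right) in each tumour. Points are tumours and bars are 95% exact Clopper-Pearson intervals; the few S100a8/S100a9-high cells are not drawn. The Il1a-/- points for monocytes lie above the WT points in the right panel only.

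Gene expression was compared on UMIs summed over the monocytes of each tumour. Levels given as normalised CPM carry edgeR's library scaling, and fold changes are log2 values of Il1a-/- over WT with their standard error (SE). Of 4646 genes tested outside the 18 that chose the cells, 12 (0.258%) had a Benjamini-Hochberg adjusted p under 0.05 in the quasi-likelihood test of edgeR. In Il1a-/- hosts 11 rose (0.237% of genes tested) and 1 fell (0.0215%). Before adjustment, 256 genes (5.51%) were higher and 161 (3.47%) lower at p under 0.05.

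The risers include genes known from myeloid cells. Chil3 encodes the chitinase-like lectin Ym1, Thbs1 the matrix glycoprotein thrombospondin 1, and Saa3 an acute-phase serum amyloid. Slc7a2 encodes an arginine transporter, Mt2 a metallothionein that binds zinc and copper, Jdp2 a repressor of the AP-1 family and Tmsb10 a thymosin that binds actin monomers. AA467197 encodes a small mitochondrial protein, and H2-Q6 a nonclassical class I molecule. Gm15056 is an unnamed gene model. Eif3j1 rose and Eif3j2 fell, and they are a pair of genes for the same subunit of a translation initiation factor.

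The promoters of 3 of the genes with the largest rises are shown because Chil3, Saa3 and Mt2 are often used as readouts of macrophage activation, acute-phase signalling and metal or stress response. Each is the 250 bases upstream of the RefSeq start on GRCm38.p6, read 5′ to 3′ on the gene's strand, from the reference genome and not from these mice. Capitals mark matches on either strand to C/EBP (TTGCNNAA), AP-1 (TGANTCA) or a loose metal response pattern (TGCNCNC), where N is any base. The last is looser than the metal response core itself, so its matches are not all matches to that core.
Chil3, chr3:106167565-106167814, minus strand: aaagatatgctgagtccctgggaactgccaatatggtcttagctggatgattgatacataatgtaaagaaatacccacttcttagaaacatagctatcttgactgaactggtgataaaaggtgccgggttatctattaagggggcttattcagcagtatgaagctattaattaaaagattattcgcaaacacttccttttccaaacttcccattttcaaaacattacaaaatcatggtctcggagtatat
Saa3, chr7:46715677-46715926, minus strand: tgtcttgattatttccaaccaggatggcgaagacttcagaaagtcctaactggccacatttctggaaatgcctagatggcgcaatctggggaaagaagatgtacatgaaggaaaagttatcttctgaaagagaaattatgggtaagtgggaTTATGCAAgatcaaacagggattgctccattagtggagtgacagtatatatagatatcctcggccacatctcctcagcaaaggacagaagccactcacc
Mt2, chr8:94172368-94172617, plus strand: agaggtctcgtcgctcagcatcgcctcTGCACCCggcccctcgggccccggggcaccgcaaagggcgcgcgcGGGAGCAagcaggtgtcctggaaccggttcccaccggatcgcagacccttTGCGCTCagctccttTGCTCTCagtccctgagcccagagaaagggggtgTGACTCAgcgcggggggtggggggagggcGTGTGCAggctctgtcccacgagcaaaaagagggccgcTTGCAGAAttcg
The Saa3 window held 1 C/EBP match, which began 99 bases before the start. The Mt2 window held 1 C/EBP match, 1 AP-1 match and 5 matches to the loose metal response pattern, and the Chil3 window held none of the 3 motifs. Among 32817 windows of the same length, 9.57% held the C/EBP motif, 6.75% the AP-1 motif and 44.4% the loose metal response pattern. Of the 12 genes, 9 had an entry. A match describes letters in this window and is not evidence of binding.

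Thbs1 rose over many cells. In normalised CPM it stood at 452 and 230 in the WT tumours and at 2225 and 1834 in the Il1a-/- tumours. Both Il1a-/- tumours lay above both WT tumours, with a log2 fold change by edgeR of 2.58 ± 0.32 SE and adjusted p = 0.00619. A Thbs1 UMI was found in 31.9% and 20.9% of WT monocytes and in 63.9% and 71.9% of Il1a-/- monocytes. When every monocyte was thinned to 1000 UMIs, leaving out 0, 3, 6 and 1 shallower cells (WT replicates 1 and 2, then Il1a-/- replicates 1 and 2), the shares were 27.5% and 10.3% against 56.7% and 62.5%. T lineage cells (at least 2 Cd3 UMIs and fewer than 3 of the phagocyte genes), which should lack the gene, gave 0.448%, 0.349%, 0.519% and 0.285% at the same depth, from medians of 2873, 4341, 1499 and 2985 UMIs before thinning. The highest Thbs1 cell of each tumour held at most 23.8% of its UMIs, and without that cell it was 2.76 on the log2 scale with adjusted p = 4.2e-04. The call ended without WT replicate 1 (3.12, adjusted p = 0.108) and without Il1a-/- replicate 2 (2.64, adjusted p = 0.0855).

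Among phagocyte classes, monocytes held the highest Thbs1 level in every tumour. In summed CPM without scaling they stood at 432 and 213 in the WT tumours against 15.5 and 8.57 in C1q phagocytes. In the Il1a-/- tumours they stood at 2149 and 1683 against 128 and 290 in C1q phagocytes. The genotype difference was present in the C1q phagocytes too, with a log2 fold change of 4.33 (adjusted p = 0.00757, edgeR). The difference of the differences, monocytes minus C1q phagocytes, was -1.68 and did not pass (adjusted p = 0.365). RNA outside cells was read from barcodes with at most 100 UMIs. It held Thbs1 at 79.8 and 64.8 CPM in the WT libraries and 172 and 237 in the Il1a-/- libraries. These levels were below the monocytes of each tumour. They were above the C1q phagocytes of every tumour except Il1a-/- replicate 2. They too were higher in the Il1a-/- libraries, and their part in the difference of either class was not tested.

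Chil3 had the smallest adjusted p but a narrower base. It stood at 185 and 224 normalised CPM in the WT tumours and at 2153 and 2615 in the Il1a-/- tumours, with a log2 fold change by edgeR of 3.54 ± 0.27 SE and adjusted p = 4.3e-05. In Il1a-/- replicate 1 the gene's 119 UMIs lay in 2 of 36 monocytes, and 1 of them held 99.2%. In Il1a-/- replicate 2, 51.7% of monocytes held a UMI and the highest cell 26.1% of them. WT monocytes held a UMI in 26.4% and 27.3%. Thinned to 1000 UMIs, the shares were 15.4% and 10.3% in the WT tumours against 6.67% and 44.3% in the Il1a-/- tumours, so that only Il1a-/- replicate 2 had the higher share. T lineage cells gave 0% and 0.907% against 0% and 2.39% at that depth. Without each gene's highest cell the log2 fold change was 2.73 and no longer passed (adjusted p = 0.0891). Without the cells that held genes of another type it was 1.57 (adjusted p = 0.354), and without WT replicate 1 it was 3.41 (adjusted p = 0.108). In summed CPM, C1q phagocytes held more Chil3 than the monocytes in 3 of 4 tumours. C1q phagocytes of Il1a-/- replicate 2 stood at 7816 summed CPM, and RNA outside cells of that library at 2375. Chil4, a neighbouring chitinase-like gene, had 1 UMI at most in the monocytes of any tumour.

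**Figure D2:**
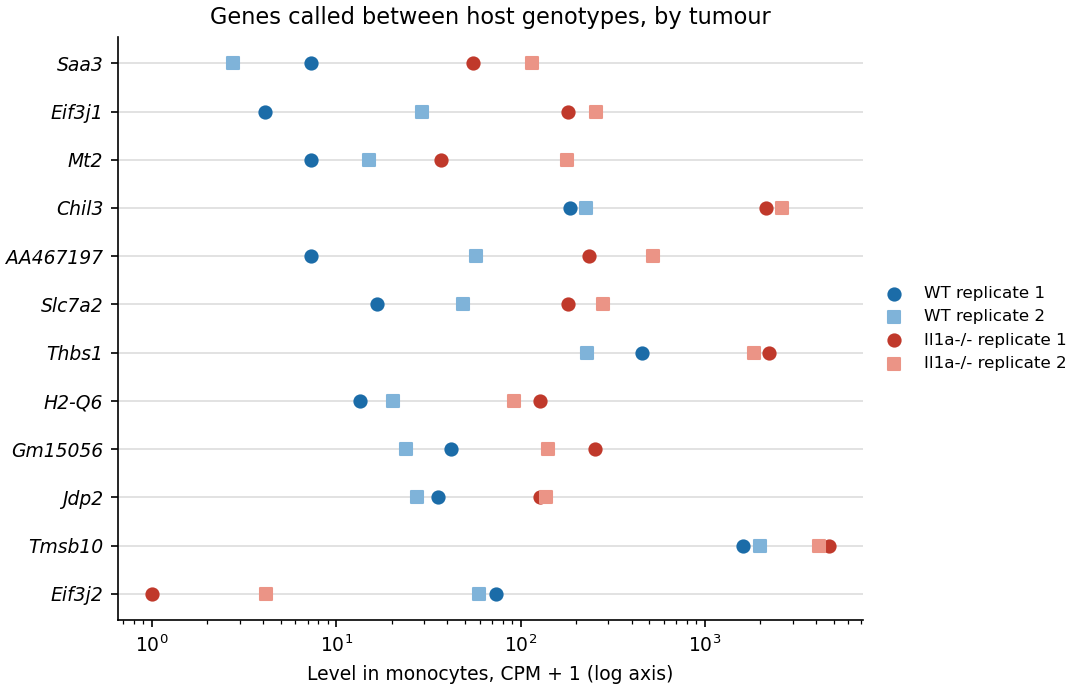
Level of each of the 12 called genes in the monocytes of each tumour, in normalised CPM plus 1 on a log axis, ordered by fold change. Points are tumours (blue WT, red Il1a-/-). The 12 genes were called on these values, and for all of them the WT and Il1a-/- tumours do not overlap. Of all genes tested, 19.9% had both Il1a-/- tumours above both WT tumours and 20.4% had them below. Saa3 lies at the top (54.3 and 113.8 CPM in Il1a-/- tumours) and Eif3j2 at the bottom.

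Saa3, Slc7a2 and Mt2 rose on few cells. Saa3 had 2 and 1 UMIs in the WT tumours and 3 and 36 in the Il1a-/- tumours, and in Il1a-/- replicate 1 all 3 lay in 1 cell, and in Il1a-/- replicate 2 they lay in 4 cells. RNA outside cells held Saa3 at 41.4 and 74.2 CPM in the WT libraries and 68.6 and 65.3 in the Il1a-/- libraries, against 52.4 and 104.5 summed CPM in the Il1a-/- monocytes. Its log2 fold change was 4.73 (SE 0.64, adjusted p = 0.00676, edgeR). Mt2 had 2 and 8 UMIs against 2 and 56, held by 1 and 6 Il1a-/- monocytes (log2 fold change 3.61, adjusted p = 0.0190). Its level in RNA outside cells, at 145 and 381 CPM in the Il1a-/- libraries, was above the 34.9 and 162.5 summed CPM of the Il1a-/- monocytes. Slc7a2 had 5 and 27 UMIs against 10 and 88, and 1 cell of Il1a-/- replicate 1 held 80.0% of that tumour's (log2 fold change 2.83, adjusted p = 0.0114).

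Tmsb10 was held by nearly all monocytes and Jdp2 by far fewer. Jdp2 had 11 and 15 UMIs in the WT tumours against 7 and 43 in the Il1a-/- tumours. Its call ended in 6 of 13 alternatives. Jdp2 stood at 34.5 and 26.5 normalised CPM against 127 and 136, with a log2 fold change by edgeR of 2.15 ± 0.38 SE and adjusted p = 0.0402, and was found in 10.99% and 10.9% of WT against 16.7% and 28.1% of Il1a-/- monocytes. Thinned to 1000 UMIs the shares were 6.59% and 3.74% against 13.3% and 11.4%, and 1.05% to 2.62% in T lineage cells. Tmsb10 stood at 1611 and 1983 against 4704 and 4148, with a log2 fold change by edgeR of 1.30 ± 0.23 SE and adjusted p = 0.0435, and was found in 94.5% to 100% of monocytes. Tmsb10 was also higher in T lineage cells of the Il1a-/- tumours, at 4881 and 5057 against 3333 and 3018 summed CPM. RNA outside cells moved the same way, at 3733 and 3099 against 1767 and 2197 CPM. Its part in the Tmsb10 difference was not tested. Without WT replicate 1 each of the 12 calls ended, and without Il1a-/- replicate 2 Chil3 alone remained called, with Saa3 and Mt2 too low to test there. DESeq2 kept Chil3, Thbs1, Eif3j1, Slc7a2 and Tmsb10.

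**Figure D3:**
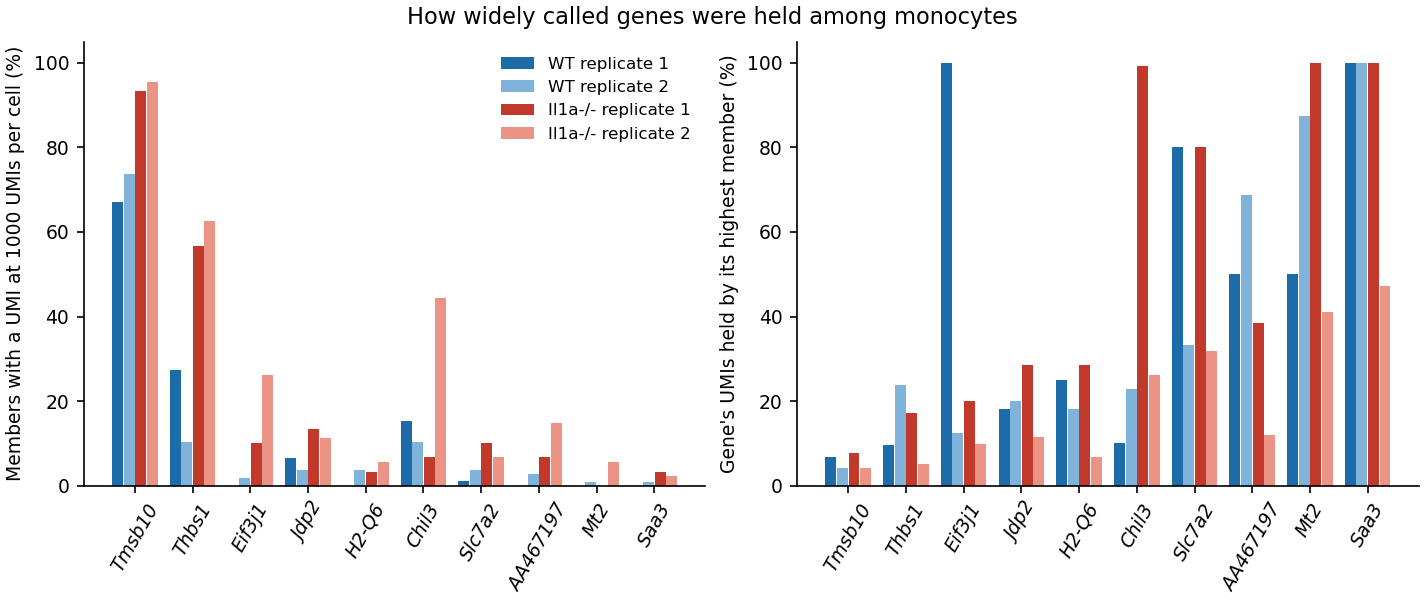
Left, percentage of monocytes with at least 1 UMI of a called gene (10 of the 11 that rose) after thinning each cell to 1000 UMIs; right, percentage of a gene's UMIs held by its highest monocyte in each tumour. Bars are tumours. Tmsb10 and Thbs1 are held by many cells, with Thbs1 in 56.7% and 62.5% of Il1a-/- monocytes, while 1 cell of Il1a-/- replicate 1 holds 99.2% of Chil3 and all of Saa3.

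Eif3j1 and Eif3j2 moved in opposite directions. Eif3j1 had 1 and 16 UMIs in the WT tumours and 10 and 81 in the Il1a-/- tumours (log2 fold change 3.63, adjusted p = 0.00676, edgeR). Eif3j2 had 23 and 33 against 0 and 1 (log2 fold change -4.39, adjusted p = 0.0450). The counting may have split reads between these copies, so each value is uncertain, and summed over the pair the monocytes stood at 72.1 and 80.2 CPM against 174.7 and 238.0. The same opposition was present in T lineage cells, where Eif3j1 stood at 18.1 and 23.2 against 149.5 and 144.4 CPM and Eif3j2 at 41.2 and 41.3 against 1.52 and 2.55.

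Of the called genes 3, Thbs1, Eif3j1 and AA467197, lie on chromosome 2, where Il1a lies (chr2:129299610-129309972, GRCm38). They sit at chr2:118111876-118127133, chr2:122028546-122056598 and chr2:122636986-122641191. Chromosome 2 held 25.0% of the called genes and 7.04% of the genes tested. AA467197 stood at 6.28 and 56.6 normalised CPM against 235 and 525 (log2 fold change 3.54, adjusted p = 0.0139, edgeR), and it also stood higher in T lineage cells of Il1a-/- tumours, at 97.8 and 169.4 against 26.1 and 38.3 summed CPM. Whether sequence near the deleted gene plays a part was not tested. H2-Q6, a member of a family of near-identical genes whose reads may have been split, stood at 12.6 and 19.4 against 127 and 91.7 (log2 fold change 2.54, adjusted p = 0.0450). It stood higher in T lineage cells of the Il1a-/- tumours too, at 172.4 and 135.1 against 90.1 and 65.9.

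The genes that chose the cells are given as a description. Ly6c2 stood at 575 and 394 normalised CPM in the WT tumours and at 1176 and 986 in the Il1a-/- tumours, and the groups did not overlap. Plac8 stood at 2609 and 2458 against 3311 and 4230. Vcan and Hp were lower, at 192 and 187 against 109 and 88.5 for Vcan and at 270 and 184 against 127 and 108 for Hp. Lyz2, which encodes lysozyme and is the bulk of the phagocyte markers, stood at 13841 and 12997 against 7581 and 7718.

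Gene lists were described by their counts and medians beside those of all genes, whose median log2 fold change was -0.02 with 48.4% above 0. Among all genes, 0.237% were called higher and 0.0215% lower. The lists were chosen with earlier results of these data known, so a called gene on a list is no independent result. The monocyte identity list held 23 tested genes, of which Chil3 and Thbs1 rose and none fell, with a median of -0.06 (0.34 without WT replicate 1). Ccr2, the receptor for marrow exit, stood at 1749 and 1285 normalised CPM against 1212 and 835 (log2 fold change -0.61, adjusted p = 0.543, edgeR). Klf4, a transcription factor of monocyte differentiation, stood at 349 and 276 against 597 and 702 (1.09, adjusted p = 0.193). The lipid-processing enzyme gene Smpdl3a stood at 421 and 258 against 163 and 183 (-0.92, adjusted p = 0.433). None of these 3 passed, although the groups did not overlap. Of all genes tested, 19.9% had both Il1a-/- tumours above both WT tumours and 20.4% had them below.

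No gene passed on the lists of nonclassical monocytes (10 tested, median 0.01, from -0.29 without WT replicate 2 to 0.58 without Il1a-/- replicate 2) and macrophage differentiation (14 tested, median -0.06, from -0.36 with no filter on low counts to 0.11 without WT replicate 2). In the second list the lipid carrier gene Apoe stood at 2575 and 2702 against 1882 and 977 normalised CPM (log2 fold change -0.94, adjusted p = 0.311, edgeR) and Selenop at 506 and 357 against 217 and 206 (-1.03, adjusted p = 0.276). Both are also abundant outside cells, with Apoe at 1630 and 1754 CPM in RNA outside cells of the WT libraries against 644 and 1298 in the Il1a-/- libraries. The mannose receptor gene Mrc1 stood at 301 and 309 against 362 and 326 (0.15).

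The IL-1 pathway and response genes did not pass either. Of 16 pathway genes 10 could be tested, 5 were above 0 and the median was -0.0014 (0.26 without WT replicate 2). The receptor gene Il1r1 had 2 UMIs over all monocytes. Il1b, the gene of the other interleukin-1 agonist, stood at 1623 and 993 against 1393 and 756 normalised CPM (log2 fold change -0.34, SE 0.33), with overlapping groups. The kinase gene Irak2 stood at 34.5 and 30.04 against 127 and 72.7 (1.40, adjusted p = 0.311, edgeR). Of 20 tested NF-kB response genes 15 were above 0 (median 0.37, and 0.04 without Il1a-/- replicate 2). Among them the chemokine genes Ccl2, at 138 and 125 against 543 and 228, and Ccl4, at 333 and 173 against 995 and 433, did not overlap between groups, and neither passed (adjusted p = 0.258 and 0.271). Of the 20 genes, 6 had both Il1a-/- tumours above both WT tumours and 2 had them below, against 19.9% and 20.4% of all genes tested. The 2 were Nfkbia, at 521 and 535 against 489 and 465, and Traf1, at 65.9 and 74.2 against 18.1 and 41.1. Cxcl2, a neutrophil-attracting chemokine gene, stood at 1812 and 871 against 2370 and 2191 (adjusted p = 0.489).

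Immune-suppressive genes were represented by 12 tested genes, of which Thbs1 rose and none fell (median 0.34). It is the same Thbs1 call as on the monocyte identity list. Arg1, the arginine-degrading enzyme gene of suppressive myeloid cells, stood at 9.42 and 772 normalised CPM in the WT tumours and at 1176 and 1881 in the Il1a-/- tumours (log2 fold change 1.95, SE 0.86, adjusted p = 0.539, edgeR). The groups did not overlap, and WT replicate 1 lay far below the other 3 tumours. Over 13 alternatives the value ran from 1.02 (without WT replicate 1) to 7.29 (without WT replicate 2, adjusted p = 7.8e-09, edgeR), and 3 of them passed, the others being no filter on low counts and the replicate block. Few monocytes carried it, 3.30% and 13.6% in the WT tumours against 8.33% and 21.3% in the Il1a-/- tumours, and 1 cell of Il1a-/- replicate 1 held 84.6% of that tumour's UMIs. Thinned to 1000 UMIs the shares were 0% and 9.35% against 6.67% and 19.3%, and 0.0747% to 0.513% in T lineage cells. Without cells holding genes of another type the median of the list was -0.07. Cd274, the gene of PD-L1, stood at 25.1 and 77.8 against 235 and 168 (1.72, adjusted p = 0.193) and was held by 6.59% and 21.8% against 30.6% and 32.6% of monocytes. At 1000 UMIs its shares were 2.20% and 10.3% against 16.7% and 15.9%, and T lineage cells, which hold the gene too, gave 3.90% to 6.09%.

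Hypoxia and glycolysis genes all lay on the higher side. All 16 tested genes were above 0, with a median of 0.90, 8 had an unadjusted p under 0.05 and none passed after adjustment. Ero1l, an oxidoreductase of the endoplasmic reticulum, stood at 34.5 and 141 against 145 and 1031 normalised CPM (log2 fold change 2.85, adjusted p = 0.129, edgeR). Bnip3, a mitophagy receptor gene, stood at 12.6 and 68.9 against 145 and 256 (2.28, adjusted p = 0.113). Each of these 2 genes passed in 6 of 13 alternatives. The glucose transporter gene Slc2a1 stood at 50.2 and 76.0 against 90.5 and 174, and Mif, a cytokine gene, at 170 and 470 against 597 and 1037. The Il1a-/- tumours lay above the WT tumours for 6 of the 16 genes, against 19.9% of all genes. Without Il1a-/- replicate 2 the median was 0.12, and without WT replicate 2 it was 1.59.

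Arg1 and Ero1l were found in the same cells of the deepest Il1a-/- sample. At 1000 UMIs per cell, 12 of 17 Arg1 monocytes of Il1a-/- replicate 2 held an Ero1l UMI, against 4.23% of the others, and in WT replicate 2 it was 3 of 10 against none. Ero1l was found in 14.5% of monocytes with a Thbs1 UMI and 21.2% of those without in Il1a-/- replicate 2, and in 17.6% and 7.69% in Il1a-/- replicate 1. Arg1 was found in 18.2% and 21.2% in Il1a-/- replicate 2, while both of the 2 Arg1 monocytes of Il1a-/- replicate 1 held a Thbs1 UMI. These pairs were looked at after their levels were seen.

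**Figure D4:**
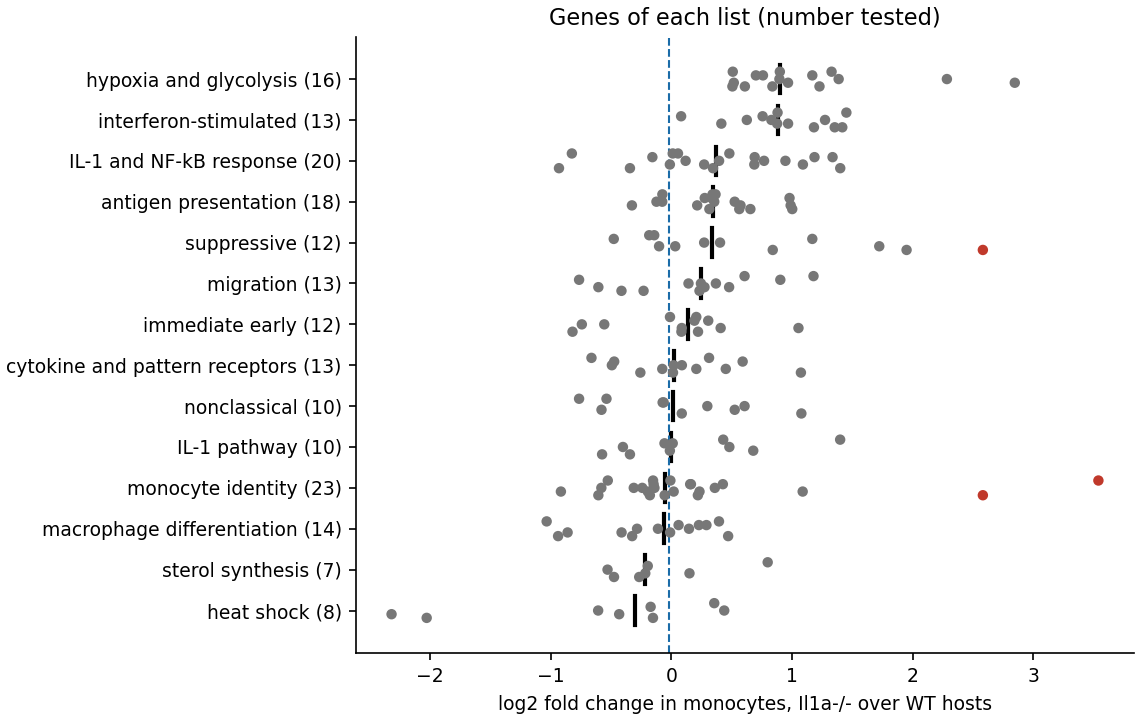
Log2 fold change (Il1a-/- over WT) of each tested gene in the monocytes, by gene list, with the number tested in brackets. Points are genes (red, passing an adjusted p of 0.05; grey, not passing), black bars are list medians and the dashed line is the median of all genes (-0.02). The hypoxia and interferon-stimulated lists lie to the right with medians of 0.90 and 0.88, yet hold no passing gene.

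Interferon-stimulated genes were likewise above 0 in all 13 that could be tested of 26, with a median of 0.88 (1.64 without WT replicate 2 and 0.64 without WT replicate 1), 4 at an unadjusted p under 0.05 and none passing. Ly6a, the gene of the surface antigen Sca-1, stood at 62.8 and 90.1 against 253 and 193 normalised CPM (log2 fold change 1.42, adjusted p = 0.137, edgeR). Isg15, a ubiquitin-like protein gene, stood at 31.4 and 54.8 against 72.4 and 130, and the transcription factor gene Irf1 at 173 and 406 against 615 and 500. The choice of cells removed those with 2 or more UMIs of the interferon-induced chemokines Cxcl9 and Cxcl10, at 4 and 63 in the WT tumours and 22 and 11 in the Il1a-/- tumours. Antigen presentation genes gave 14 of 18 above 0 (median 0.35, and 0.05 without Il1a-/- replicate 2) and none passing. The class I heavy chain gene H2-K1 stood at 1181 and 1310 against 2696 and 2248 (0.98, adjusted p = 0.169), and RNA outside cells held it at 1166 and 1839 against 2468 and 2822 CPM. Tap1, a peptide transporter gene, stood at 110 and 164 against 326 and 259.

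Migration, receptor, immediate early, heat shock, sterol and cell cycle lists held no passing gene. Cxcr4, a marrow retention receptor gene, stood at 192 and 125 against 362 and 348 normalised CPM (log2 fold change 1.18, adjusted p = 0.208, edgeR) and the integrin gene Itga4 at 239 and 201 against 452 and 386 (0.90, adjusted p = 0.305). Of 13 migration genes, 5 had both Il1a-/- tumours above both WT tumours and 2 had them below, against 19.9% and 20.4% of all genes. The 2 were Ccr2, given above, and Selplg, at 157 and 134 against 90.5 and 114. The AP-1 gene Fosb stood at 201 and 207 against 452 and 408 (1.05, adjusted p = 0.208), while the antiproliferative gene Btg2 stood at 876 and 779 against 452 and 477 (-0.82, adjusted p = 0.314). The inducible chaperone genes Hspa1a and Hspa1b had log2 fold changes of -2.03 and -2.32, with WT replicate 1 the highest at 405 and 358 normalised CPM. The medians were 0.24 for migration, 0.02 for receptors, 0.14 for immediate early, -0.30 for heat shock and -0.22 for sterol synthesis (-3.80 without Il1a-/- replicate 2). The immediate early median turned to -0.27 without WT replicate 2 and was 0.53 without WT replicate 1. The heat shock median was -0.62 without WT replicate 1 and -0.06 without WT replicate 2. The receptor median turned to -0.13 without Il1a-/- replicate 2. Only 1 of 10 cell cycle genes had enough UMIs to test.

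Whether the genotype difference in monocytes differed from that in C1q phagocytes of the same tumours was tested on 6029 genes, with the tumour as a term. Saa3 alone passed (0.0166% of genes tested), and 358 genes (5.94%) had an unadjusted p under 0.05. In monocytes Saa3 stood at 6.28 and 1.77 against 54.3 and 114 normalised CPM, whereas in C1q phagocytes it stood at 24.2 and 110 against 13 and 57.7. The difference between the log2 fold changes was 5.47 (SE 0.83, Benjamini-Hochberg adjusted p = 0.0474 in edgeR), and it did not pass with edgeR's relative log expression (RLE) scaling. The other called genes moved in C1q phagocytes in the same direction as in monocytes. Their log2 fold changes there were 1.60 for Slc7a2, 1.54 for Mt2, 2.14 for Jdp2, 2.29 for H2-Q6 and 2.90 for Eif3j1. They were 3.21 for AA467197, 1.88 for Chil3, 4.33 for Thbs1, 1.53 for Gm15056, 0.95 for Tmsb10 and -3.79 for Eif3j2. Of these, Thbs1 and Eif3j1 alone passed in C1q phagocytes (adjusted p = 0.00757 and 0.0193, edgeR). In the test of the difference the next genes by p did not pass. On the higher side in monocytes were Ankrd37, an ankyrin repeat gene, by 4.04, and the fractalkine receptor gene Cx3cr1 by 3.17, and 1 cell of Il1a-/- replicate 2 held 89.7% of its Ankrd37 UMIs. On the lower side were the signalling regulator gene Errfi1 by -3.02, the interleukin-7 receptor gene Il7r by -3.85 and the phospholipid-binding protein gene Anxa1 by -1.93 (adjusted p from 0.151 to 0.163). Ankrd37 and Il7r were too low in monocytes to be tested there alone. In C1q phagocytes Il7r had a log2 fold change of 2.69, at 20.1 and 28.2 against 39.0 and 211 normalised CPM. Cx3cr1 showed a log2 fold change of -0.77 in monocytes and -4.31 in C1q phagocytes.

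**Figure D5:**
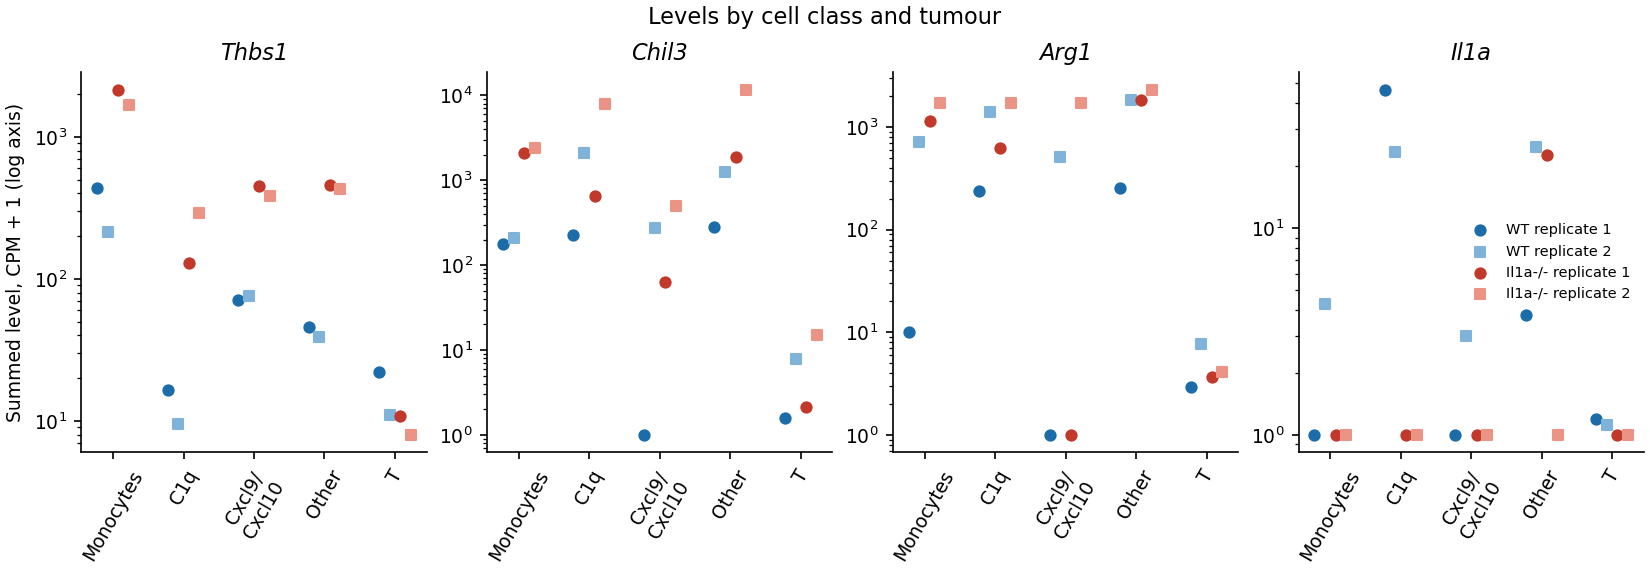
Summed CPM plus 1 on a log axis for Thbs1, Chil3, Arg1 and Il1a in monocytes, C1q phagocytes, Cxcl9/Cxcl10 phagocytes, other phagocytes and T lineage cells. Points are tumours (blue WT, red Il1a-/-). Thbs1 is highest in monocytes in every tumour, Chil3 and Arg1 reach their highest values in other classes, and Il1a in WT tumours is at 0 and 3.27 CPM in monocytes against 45.7 and 22.4 in C1q phagocytes. The raised Il1a-/- point for Il1a in other phagocytes is 1 UMI.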

How the data were processed

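Single-cell RNA of 4 tumours was analysed from the deposited matrices of UMI counts, 1 per tumour. Per the submitters' processing notes the authors used Cell Ranger 3.1.0 and mm10, and the features also list human genes. Counting parameters, such as the treatment of strand and of reads from near-identical genes, are not given in the sources used here. Only mouse features entered the gates and tests. The members and gene lists were chosen with earlier results of these data known.

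Cells were gated on UMIs in Python 3.11.15 as stated above, and no doublets were removed, with Scrublet run in scanpy 1.11.5 as an alternative. Counts were summed per tumour and tested in edgeR 4.0.16 (filterByExpr, TMM, quasi-likelihood test, Benjamini-Hochberg over all genes tested) in R 4.3.3 without a replicate term. DESeq2 1.42.0 was an alternative. The interaction fit had the tumour and the class as terms. The fits were tested on simulated data with the same dispersion for all genes and changes only in more abundant genes. That setting does not cover called genes with few UMIs, such as Saa3, Mt2 and Eif3j2. Named genes were those called (up to 15 in each direction), the 3 interaction genes with the smallest p in each direction that were found, Il1a and genes of the lists. Gene positions are from GENCODE vM21, which matched 99.9% of the 31053 mouse gene identifiers. Promoters are from RefSeq. The precision of each level is limited by the 57231 to 611293 UMIs of a tumour's monocytes, and intervals cover counting error only.

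The labels give 2 pairs collected on separate days and do not tie a replicate number to a day. Deviations of same-numbered samples from their group means correlated by 0.077 over 4653 genes. With 2 samples per group this correlation cannot show whether the samples were paired. The main test treated them as sharing only a number, and the count with the replicate number as a block is given below. Some list genes, and an alternative gate added after seeing the data, are not reported here.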

Additional observations from a re-analysis of the deposited data

Results flagged for a closer look

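The genotype difference of Saa3 was the only gene past an adjusted p of 0.05 in the test of monocytes against C1q phagocytes, with a difference between log2 fold changes of 5.47 (SE 0.83, adjusted p = 0.0474 in edgeR's quasi-likelihood test). Of its monocyte UMIs, 36 came from 4 cells of Il1a-/- replicate 2 and 3, 2 and 1 from the other 3 tumours. The monocytes also held 85 UMIs on human features, which take no part in the comparisons above. They were 21 and 36 in the WT tumours and 8 and 20 in the Il1a-/- tumours, and human features took 0.00522% to 0.00759% of the UMIs of a library.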

How the results depend on the processing

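The count of 12 called genes moved with the processing. It was 5 with DESeq2, 7 with cells of at least 1000 UMIs and 57 with no filter on low counts. With the replicate number as a block it was 132, and these included all 12, although the numbers are not shown to pair the samples. Leaving out 1 tumour gave 0 in edgeR (WT replicate 1, with 393 genes at an unadjusted p under 0.05), 2 (Il1a-/- replicate 2), 41 (Il1a-/- replicate 1) and 50 (WT replicate 2), where the lone tumour is assumed to vary like the other group. Of 148 refits of the 12 genes 110 kept the call, 38 lost it and 0 changed direction.

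For the difference between monocytes and C1q phagocytes the count of 1 was 0 in edgeR with DESeq2's size factors (367 genes at an unadjusted p under 0.05), 35 with no filter and 6 to 22 with 1 tumour left out. The monocyte share of retained cells changed direction without cells holding genes of another type (0.210 points) and ranged from -1.39 to 0.159 points with 1 tumour left out. The share of phagocytes ranged from 10.0 to 16.1 points with 1 tumour left out and from 5.60 to 16.9 points under the other alternatives. Il1b ranged from -0.78 to 0.028 with 1 tumour left out, turning to 0.015 without Il1a-/- replicate 2 and 0.028 without WT replicate 1. Errfi1 ranged from -0.41 to 0.085 with 1 tumour left out and turned to 0.085 without Il1a-/- replicate 2, 0.061 without WT replicate 2, 0.37 without each gene's highest monocyte and 0.55 without cells holding genes of another type. The removal of the highest monocyte was chosen after seeing the data. The causes of these moves were not tested. Thinning before the gate, and requiring 2 markers, left Il1a-/- replicate 1 with 19 and 18 monocytes, under the 20 required, so no gene test, and no test against C1q phagocytes, was run there. The 36 monocytes of Il1a-/- replicate 1 limit the depth of every comparison.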
